A study of Mus musculus with 6 samples.

Results

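The genes described here encode the ligands and receptors of axon and vessel guidance: Eph receptors and ephrins, semaphorins with their plexin and neuropilin receptors, netrins with Unc5 receptors, and Slits with Robo receptors. Members were taken by gene symbol from the array's annotation, which gave 65 genes of 25206 features in 11 families, all of them protein-coding in the RefSeq table. The order of description was chosen by the mean log2 level over all 6 arrays. The 10 members above 5 on that scale come first within their roles, and 55 lay at or below it. Of the members nearest to that level, Epha4 (5.15) and Efnb3 (5.05) lay just above it and Sema4b (4.85) and Sema4c (4.73) just below. Epha4 passed the level through the arrays labelled Tet2-deficient, so its place above 5 is no separate result. Rows for Plxna4os1 and Unc5cl share the letters of a family name without being guidance receptors and were not counted. Plxna4os1, a long non-coding RNA, changed by 0.26 log2 units (adjusted p = 0.30) and Unc5cl by -0.12 (adjusted p = 0.695).

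Eph receptors are tyrosine kinases that meet their ephrin ligands on a neighbouring cell, and both partners can signal into the cell that carries them. Semaphorins act mainly through plexins, which can lower adhesion and the activity of some small GTPases, and most of the secreted class use a neuropilin as co-receptor. Netrins and Slits are secreted cues read by Unc5 and Robo receptors. In leukocytes these molecules are known for steering migration, adhesion and contact between cells.

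Macrophages drawn into the peritoneal cavity by thioglycollate broth (1 mL of 4% medium, 4 days) came from mice labelled Tet2-/- and from wild-type littermates, all C57BL/6J, with 3 biological replicates in each group. Whether a replicate is 1 mouse or a pool is left unsaid in the labels, and the p-values measure the spread between these samples. Tet2 is an enzyme that oxidises 5-methylcytosine in DNA. Every culture of both groups received 10 ng/mL lipopolysaccharide, the bacterial ligand of toll-like receptor 4, and 2 ng/mL interferon gamma for 10 h in medium with 10% serum, so all values describe stimulated cells. Total RNA of each culture was measured on 1 array, and the labels name no sort of the plated cells. The values are log2 expression after RMA (a background correction, normalization and probe summary shared by all arrays). Levels of different genes are read by different probes and are not set against each other below. Changes are given as labelled Tet2-deficient minus wild-type on the log2 scale, with the standard error of a limma fit over all features and a p adjusted over all of them. A change was called where the adjusted p lay below 0.05.

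The Tet2 feature did not show a loss in the arrays labelled Tet2-deficient: 5.55, 5.25 and 5.75 there, against 5.40, 5.07 and 5.10 in wild-type arrays (change 0.32 ± 0.16 SE, adjusted p = 0.365). Which part of the gene was deleted and where the probes lie is unknown here, so this feature may check nothing and each direction rests on the labels. General macrophage markers (7 measured of 8 listed) lay above the array median, with summed linear signals of 8046 to 8411 in labelled Tet2-deficient arrays and 6463 to 6686 in wild-type arrays. Of these 2 rose, Cd14 and Itgam (log2 change 0.97 each). Csf1r (0.58) and Adgre1 (0.15) were apart on the higher side without passing, and Cd68 (0.00), Mertk (-0.10) and Fcgr1 (-0.51) overlapped. Markers of resident peritoneal macrophages (10 of 10 measured, Cd209b below the array median on all arrays) summed to 1239 to 2126 in labelled Tet2-deficient arrays and to 502 to 723 in wild-type arrays. Linear sums give most weight to the brightest markers, and Prg4 and Timd4 together made up most of each of these sums. Timd4, Prg4 and F5 rose, Icam2 and Alox15 were apart without passing, and Gata6, Selp, Garnl3, Ltbp1 and Cd209b overlapped. Monocyte marker sums (4 of 5 measured) were also apart, at 281 to 447 in labelled Tet2-deficient arrays and 197 to 251 in wild-type arrays, but 0 of the 4 passed and only Ly6c2 (log2 change 1.01, adjusted p = 0.0558) had groups apart, while Ccr2, Plac8 and Chil3 overlapped. Endothelial markers (8 of 8) summed to 131 to 153 in labelled Tet2-deficient arrays and 116 to 130 in wild-type arrays, with Tek, Tie1, Emcn and Cldn5 below the array median on all arrays. Of the mesothelial and fibroblast markers (11 of 11, Krt19 and Lum below the median) only Dcn had groups apart (log2 change 1.26, adjusted p = 0.0715). Their sums overlapped, at 200 to 534 in labelled Tet2-deficient arrays and 181 to 255 in wild-type arrays. Labelled Tet2-deficient replicate 2 held the highest of these sums and also of the neutrophil sums (248 to 514 in labelled Tet2-deficient arrays and 214 to 295 in wild-type arrays). S100a8 (8.87 on that array, groups overlapping) made up most of the neutrophil sums. The neutrophil markers S100a9, Ly6g, Camp, Ltf and Mpo lay below the array median on all arrays, and Ly6g was lowest on that array (2.45). In bulk RNA, fewer cells of a type and less RNA per cell cannot be told apart. The part of these marker differences in the results below was not tested.

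**Figure D1:**
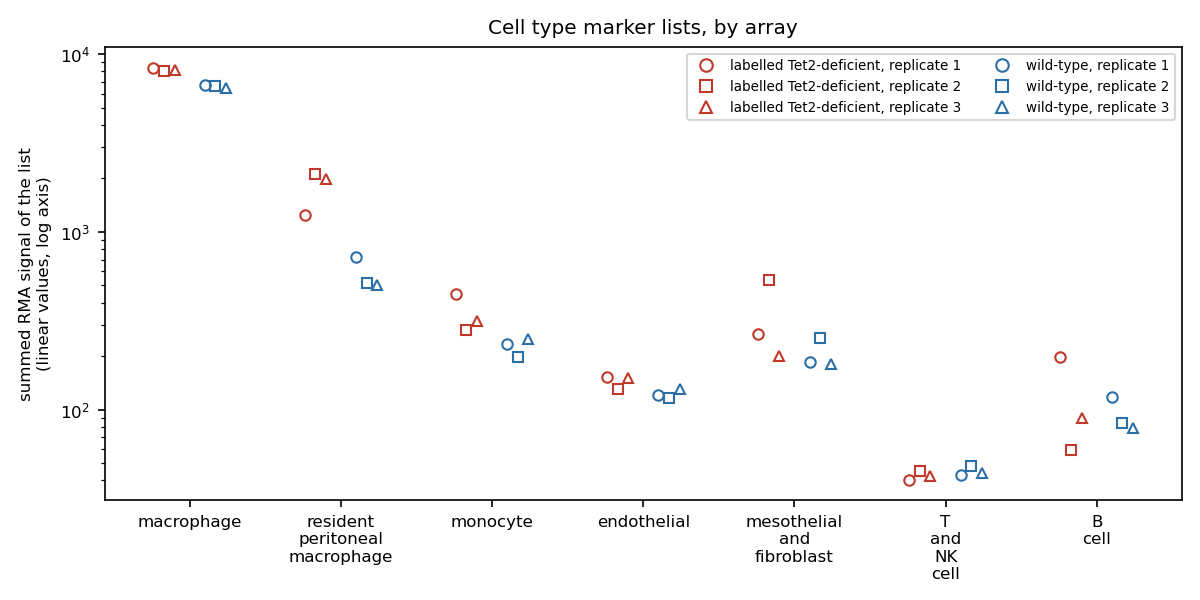
Summed linear RMA signal of the markers of 7 cell types on each array (log axis), with labelled Tet2-deficient arrays in red and wild-type arrays in blue. Sums of resident peritoneal macrophage markers lay apart between the groups (1239 to 2126 against 502 to 723), though Gata6, Selp, Garnl3, Ltbp1 and Cd209b overlapped singly. Most of each of these sums came from Prg4 and Timd4. Labelled Tet2-deficient replicate 2 stood high for the mesothelial and fibroblast sum (534).

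Of the 65 members, 3 rose in macrophages labelled Tet2-deficient and 0 fell by limma's adjusted p: the receptor Epha4, the secreted semaphorin Sema3c and the ephrin ligand Efnb2. These 3 are 4.62% of the members, against 0.952% of all 25206 features called in either direction and 0.647% called as higher. The members were chosen with earlier results of these data known, so such shares are description only. At an unadjusted p under 0.05, 8 members were higher (12.3%, against 7.63% of all features) and 3 lower (4.62%, against 8.37% of all features). Groups did not overlap for 8 members on the higher side (12.3%, against 9.74% of all features) and for 4 on the lower side (6.15%, against 12.2% of all features). The median log2 change of the members was -0.04, the same to 2 decimals as the median over all features (-0.04). Both medians turned positive when each array was centred on its own median (0.02 for the members and 0.03 for all features). Changes of the 62 members that were not called ran from -0.43 to 0.75. On all 6 arrays 31 members lay below the array's median feature, near the floor of the scale, where a change can be understated; no detection call was used here. No single array was extreme for most members. Wild-type replicate 2 was the highest array for 22 of the 65 and labelled Tet2-deficient replicate 2 for 12, and labelled Tet2-deficient replicate 1 was the lowest for 20. Members deviated from their mean level by a median of 0.10 on wild-type replicate 2 and 0.09 on labelled Tet2-deficient replicate 2. On the other arrays that median was -0.07 to -0.04.

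**Figure D2:**
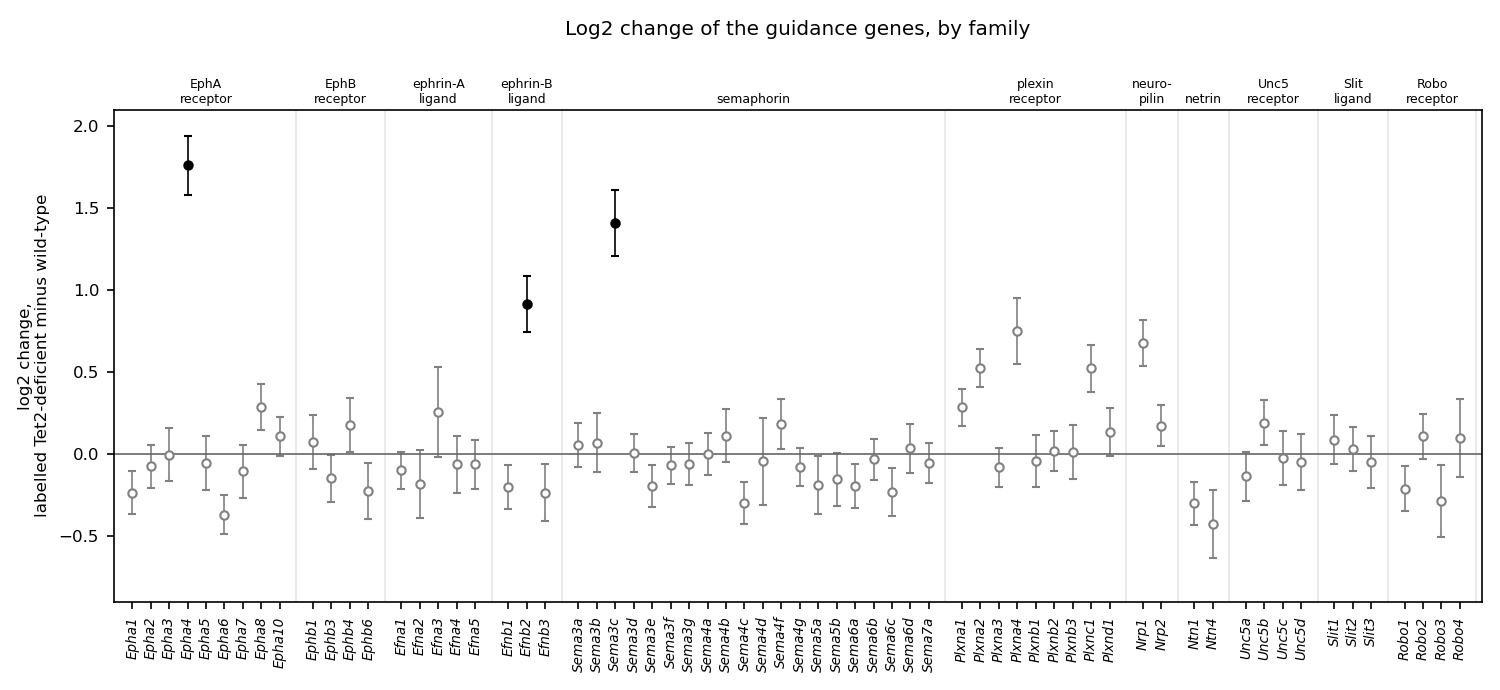
Log2 change (labelled Tet2-deficient minus wild-type) of each of the 65 guidance genes by family, with bars of 1 SE (n = 3 arrays per group). Filled points are the 3 genes called at an adjusted p under 0.05 (Epha4 at 1.76, Sema3c at 1.41 and Efnb2 at 0.91), and open points are the 62 others.

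Among the receptors, Epha4, an Eph kinase that binds ligands of both the ephrin-A and the ephrin-B class, showed the widest separation of the groups. Its log2 level was 5.67, 6.01 and 6.41 in labelled Tet2-deficient replicates 1, 2 and 3, against 4.33, 4.33 and 4.15 in wild-type replicates 1, 2 and 3. Every array labelled Tet2-deficient thus lay over 1 log2 unit above every wild-type array, and replicate 3 of that group was the highest of all. The mean was 6.03 ± 0.37 in labelled Tet2-deficient arrays and 4.27 ± 0.10 in wild-type arrays (SD, n = 3 each), a 3.39-fold difference (log2 change 1.76 ± 0.18 SE, 95% interval 1.35 to 2.17, adjusted p = 0.00629). The call held whichever array was left out, with changes of 1.57 to 1.94 and adjusted p of 0.0122 to 0.0339. Without labelled Tet2-deficient replicate 2 the change was 1.77 (adjusted p = 0.0333). The summed signals of resident macrophage markers (mostly Prg4 and Timd4) and of monocyte markers were higher in the same arrays as Epha4. Of these markers 3 of 10 and 0 of 4 were called.

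The other 8 EphA receptors measured did not pass, with changes of -0.37 to 0.29. Epha6 was lower in each array labelled Tet2-deficient (2.15, 2.11 and 2.05) than in each wild-type array (2.44, 2.60 and 2.37), with a log2 change of -0.37 ± 0.12 SE (unadjusted p = 0.0117, adjusted p = 0.171). All of these Epha6 values lie below the array medians, so they stand near the floor. Of the 4 EphB receptors measured (Ephb1, Ephb3, Ephb4 and Ephb6) 0 passed and 0 had an unadjusted p under 0.05. Ephb4, the venous receptor known as a partner of ephrin-B2, had levels of 3.80, 4.15 and 3.78 in labelled Tet2-deficient arrays, against 3.62, 4.03 and 3.56 in wild-type arrays. The groups overlapped for Ephb4 (log2 change 0.18 ± 0.16 SE, 95% interval -0.19 to 0.55).

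On the ligand side, 1 of 3 ephrin-B ligands rose. Efnb3, known from neurons, had 4.68, 5.19 and 4.91 in labelled Tet2-deficient arrays, against 5.03, 5.46 and 5.0 in wild-type arrays, and the groups overlapped (log2 change -0.23 ± 0.17 SE, adjusted p = 0.571). Efnb2 encodes ephrin-B2, a membrane-spanning ligand of EphB receptors and of Epha4, best known from arterial endothelium. Efnb2 stood at 4.84, 5.26 and 5.09 in labelled Tet2-deficient replicates 1, 2 and 3, against 4.27, 4.36 and 3.82 in wild-type replicates 1, 2 and 3. The groups did not overlap, and wild-type replicate 3 was the lowest array. Means were 5.06 ± 0.21 in labelled Tet2-deficient arrays and 4.15 ± 0.29 in wild-type arrays (SD, n = 3 each), which is 1.89-fold (log2 change 0.91 ± 0.17 SE, adjusted p = 0.0478). This call was narrow. It ended whichever of the 6 arrays was left out, with adjusted p of 0.0734 to 0.171 and changes of 0.75 to 1.03. The endothelial marker sums given above lay narrowly apart and higher in the same arrays, while the list's median log2 change was -0.003. Changes were 0.44 for Vwf without overlap (adjusted p = 0.173) and 0.55 for Kdr with overlap (adjusted p = 0.342). The others overlapped, at 0.10 for Pecam1, -0.23 for Cdh5, -0.09 for Emcn, -0.05 for Cldn5, -0.006 for Tie1 and -0.0003 for Tek. Of the 8 markers 0 passed and 4 lay below the array median on all arrays. Their part in the Efnb2 values was not tested.

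Efnb1 had a log2 change of -0.20 ± 0.14 SE (adjusted p = 0.532). The 5 ephrin-A ligands, which are anchored to the membrane by a lipid, ranged from -0.18 to 0.26 and 0 of them passed or had an unadjusted p under 0.05.

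**Figure D3:**
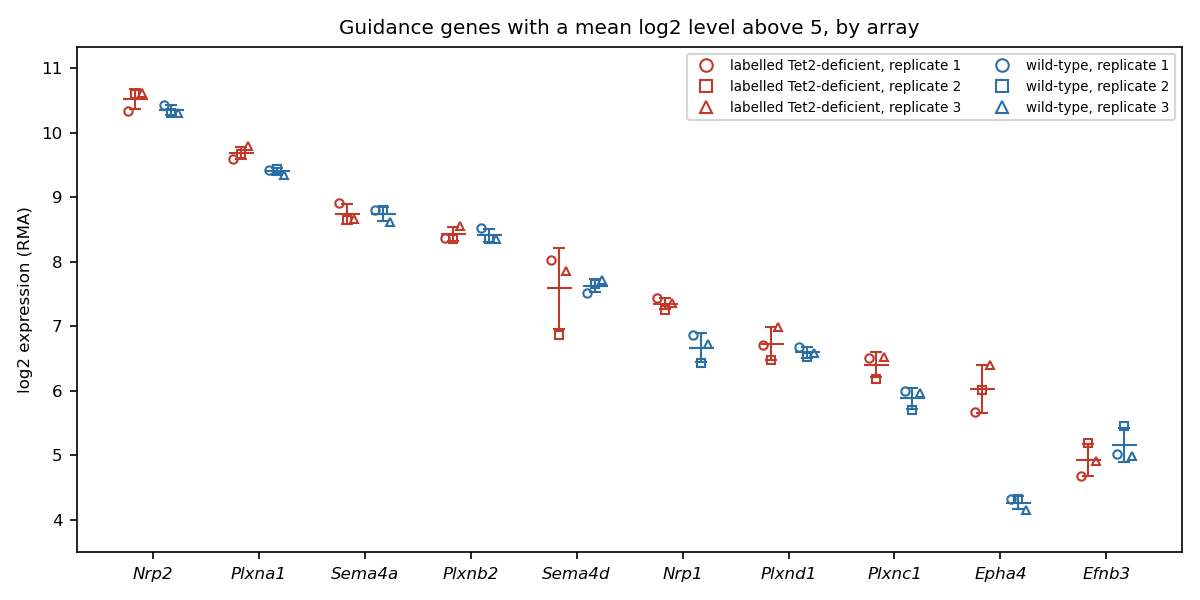
Log2 level of the 10 guidance genes with a mean above 5 on each array, labelled Tet2-deficient in red and wild-type in blue, with the group mean and SD as bars (n = 3 each). Epha4 shows the widest gap (5.67 to 6.41 against 4.15 to 4.33), Nrp1, Plxnc1 and Plxna1 show groups that do not overlap, and Sema4d shows 1 low array (6.87).

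Among the semaphorins, 1 of 20 rose and 0 fell. Of the 6 membrane-bound class 4 semaphorins 0 passed. Sema4a, known as a co-stimulator of T cells, had 8.91, 8.65 and 8.66 in labelled Tet2-deficient arrays, against 8.81, 8.80 and 8.61 in wild-type arrays. The change was 0.00 ± 0.13 SE with a 95% interval of -0.29 to 0.29, and the groups overlapped throughout. Sema4d, the CD100 antigen of lymphocytes and a ligand of B-type plexins, had 8.03, 6.87 and 7.86 in labelled Tet2-deficient replicates 1, 2 and 3, against 7.51, 7.66 and 7.72 in wild-type arrays. Labelled Tet2-deficient replicate 2 stood about 1 log2 unit below the other arrays of its group, so the SD was 0.63 there and 0.11 in the wild-type group. The Sema4d change was -0.04 ± 0.26 SE (adjusted p = 0.961), and 0.32 without that replicate (adjusted p = 0.297). The same array held the lowest sum of B cell markers (59.7, against 89.5 and 198 in the other labelled Tet2-deficient arrays and 79.0 to 118 in wild-type arrays) and the highest mesothelial and fibroblast sum. T and NK cell marker sums were 40.4, 45.5 and 42.4 in labelled Tet2-deficient replicates 1, 2 and 3, against 43.1 to 48.0 in wild-type arrays. Labelled Tet2-deficient replicate 2 thus held the highest T and NK cell sum of its group, with 5 of 6 markers below the array median. The part of these cells in the low Sema4d value was not tested.

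Sema3c is a secreted semaphorin that signals through neuropilins together with A-type plexins and Plxnd1. Levels of Sema3c were 4.82, 4.87 and 4.67 in labelled Tet2-deficient replicates 1, 2 and 3, against 3.65, 3.61 and 2.88 in wild-type replicates 1, 2 and 3. The labelled Tet2-deficient arrays were close to each other, and wild-type replicate 3 stood below the other wild-type arrays. Group means were 4.79 ± 0.10 in labelled Tet2-deficient arrays and 3.38 ± 0.43 in wild-type arrays (SD, n = 3 each), a 2.65-fold difference (log2 change 1.41 ± 0.20 SE, 95% interval 0.96 to 1.86, adjusted p = 0.0190). Without the low wild-type replicate 3 the change was 1.16 (adjusted p = 0.0280). The call ended without labelled Tet2-deficient replicate 1 (adjusted p = 0.0941), 2 (0.0564) or 3 (0.0786), at changes of 1.37 to 1.47. Wild-type levels of Sema3c lay near or below the array medians of 3.54 to 3.66, so the fold may be understated.

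The other 6 class 3 semaphorins had changes of -0.19 to 0.07, and 0 of them passed or had an unadjusted p under 0.05. Sema3a, a secreted axon repellent, had levels of 2.70, 2.79 and 2.53 in labelled Tet2-deficient arrays, against 2.56, 2.80 and 2.49 in wild-type arrays. Those groups overlapped and lay below the array medians. Sema3e, which binds Plxnd1 without a neuropilin, was lower without overlap, at 1.68 to 1.86 in labelled Tet2-deficient arrays against 1.89 to 2.15 in wild-type arrays, near the floor (log2 change -0.19, unadjusted p = 0.156).

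Sema4b had a change of 0.11 ± 0.16 SE, with overlapping groups. Sema4c was lower in labelled Tet2-deficient arrays (4.39, 4.73 and 4.61) than in wild-type arrays (4.82, 4.97 and 4.84), without overlap but short of the threshold (log2 change -0.30 ± 0.13 SE, unadjusted p = 0.0456, adjusted p = 0.301). The class 5 members Sema5a and Sema5b (-0.19 and -0.15) and the 4 class 6 members (-0.23 to 0.04) did not pass. Sema7a, the lipid-anchored semaphorin that binds Plxnc1 and beta-1 integrins, had a change of -0.06 ± 0.12 SE with overlapping groups.

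The receptors of semaphorins include the neuropilins and plexins, of which 0 of 11 passed and 5 had an unadjusted p under 0.05, all 5 of them higher, where 7.63% of all features were. Nrp1, a co-receptor shared by class 3 semaphorins and vascular endothelial growth factor, came nearest to the threshold. It stood at 7.43, 7.26 and 7.36 in labelled Tet2-deficient arrays, against 6.86, 6.43 and 6.72 in wild-type arrays. The groups lay apart and labelled Tet2-deficient arrays differed little among themselves. The ratio was 1.60-fold (log2 change 0.68 ± 0.14 SE, 95% interval 0.36 to 1.00, adjusted p = 0.0576). Under 3 of 13 alternatives Nrp1 passed: without the dim features (0.0253), under a robust prior with a trend (0.0207) and after weighting the arrays (0.0418). With 1 array left out the change was 0.56 to 0.78 and did not pass. Nrp2 had 10.34, 10.60 and 10.62 in labelled Tet2-deficient arrays, against 10.43, 10.30 and 10.31 in wild-type arrays. The groups overlapped for Nrp2 (log2 change 0.17 ± 0.13 SE, adjusted p = 0.557). Whether Nrp1 and Nrp2 differ in their change was not tested.

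Among A-type plexins, which pair with neuropilins, 0 of 4 passed and 3 had groups that did not overlap on the higher side, as had 9.74% of all features. Plxna1, also known as a partner of Trem2 in myeloid cells, had 9.59, 9.67 and 9.79 in labelled Tet2-deficient arrays, against 9.42, 9.43 and 9.34 in wild-type arrays. That gap was small but even (log2 change 0.29 ± 0.11 SE, adjusted p = 0.266).

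Plxnc1, the receptor of Sema7a, had 6.52, 6.19 and 6.52 in labelled Tet2-deficient arrays, against 5.99, 5.70 and 5.96 in wild-type arrays. Groups did not overlap and the change of 0.52 ± 0.14 SE did not pass (adjusted p = 0.118). Plxnb2, the B-type plexin of many epithelial and myeloid cells, had 8.37, 8.36 and 8.55 in labelled Tet2-deficient arrays, against 8.52, 8.36 and 8.35 in wild-type arrays. The Plxnb2 groups overlapped (log2 change 0.02 ± 0.12 SE, 95% interval -0.25 to 0.29). Plxnd1, a receptor of Sema3e and Sema3c, had 6.71, 6.48 and 6.99 in labelled Tet2-deficient arrays, against 6.68, 6.52 and 6.59 in wild-type arrays, with overlapping groups (log2 change 0.14 ± 0.15 SE, adjusted p = 0.718).

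Of the plexins at or below 5, Plxna4 had 4.11, 4.39 and 4.04 in labelled Tet2-deficient arrays, against 3.67, 3.67 and 2.95 in wild-type arrays. Wild-type replicate 3 was again the lowest, as for Sema3c and Efnb2. The Plxna4 change of 0.75 ± 0.20 SE (adjusted p = 0.114) became 0.51 without that array (adjusted p = 0.242). Plxna2 had 3.24, 3.07 and 3.17 in labelled Tet2-deficient arrays, against 2.63, 2.55 and 2.72 in wild-type arrays. Its groups were tight and apart, yet all values lay below the array medians (log2 change 0.53 ± 0.12 SE, adjusted p = 0.0707). Plxna3 had a change of -0.08 ± 0.12 SE. Plxnb1 and Plxnb3 lay below the array medians with changes of -0.04 and 0.01.

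**Figure D4:**
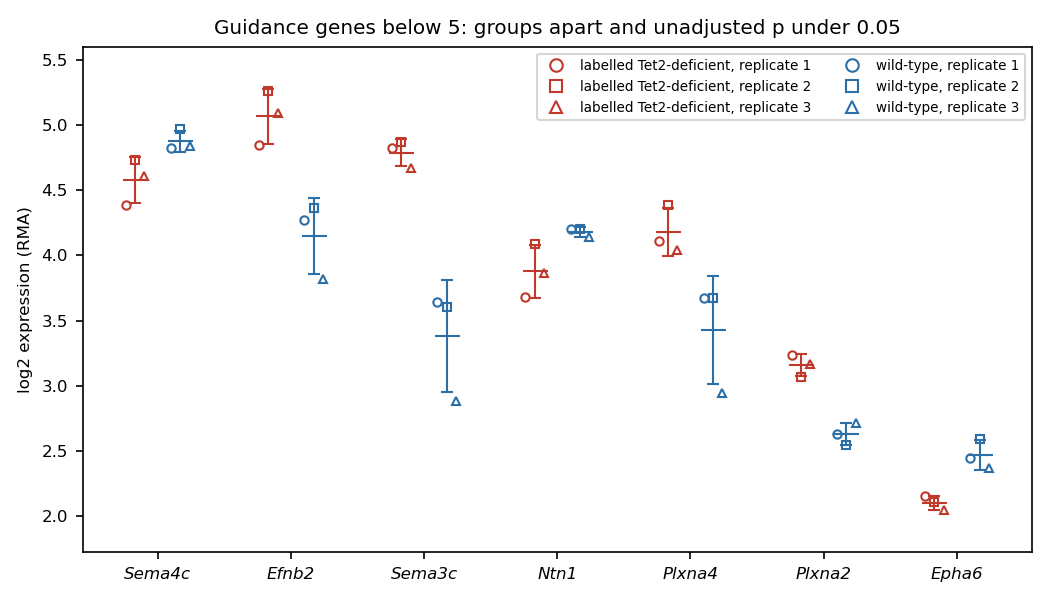
Log2 level on each array of the 7 guidance genes at or below a mean of 5 that had groups apart and an unadjusted p under 0.05, labelled Tet2-deficient in red and wild-type in blue, with group mean and SD (n = 3 each). Efnb2 and Sema3c were called, and wild-type replicate 3 was the lowest wild-type array for Efnb2 (3.82), Sema3c (2.88) and Plxna4 (2.95).

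Netrins, Unc5 receptors, Slits and Robos gave 0 calls among 13 members, and 1 of them, Ntn1, had an unadjusted p under 0.05. Ntn1, a secreted cue that attracts or repels axons and is known to hold back leukocyte migration, had 3.68, 4.09 and 3.87 in labelled Tet2-deficient arrays, against 4.20, 4.20 and 4.14 in wild-type arrays. The groups did not overlap, and labelled Tet2-deficient arrays spread more widely (log2 change -0.30 ± 0.13 SE, unadjusted p = 0.0488, adjusted p = 0.309). Ntn4 had a change of -0.43 ± 0.21 SE with overlapping groups near the floor. Unc5b, the Unc5 receptor known from vessels and macrophages, had 4.34, 4.33 and 4.05 in labelled Tet2-deficient arrays, against 4.21, 3.91 and 4.03 in wild-type arrays. Those groups overlapped (log2 change 0.19 ± 0.14 SE, adjusted p = 0.551). Changes of the 4 Unc5 receptors ran from -0.14 to 0.19, those of the 3 Slits from -0.05 to 0.09 and those of the 4 Robo receptors from -0.29 to 0.11. All 4 Robo receptors lay below the array median on all 6 arrays.

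The fits with arrays left out separated the 3 calls. Epha4 passed in all 6 such fits, Sema3c in 3 and Efnb2 in 0. For each of the 3 the direction was the same in all 13 alternatives.

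**Figure D5:**
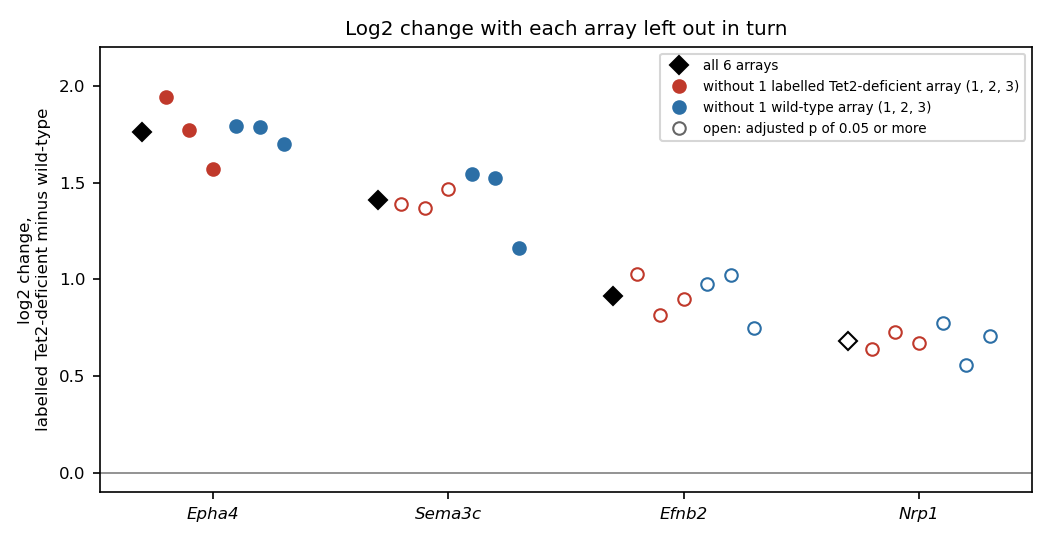
Log2 change of Epha4, Sema3c, Efnb2 and Nrp1 with all 6 arrays (diamonds) and with each array left out in turn (circles, red for labelled Tet2-deficient and blue for wild-type, replicates 1 to 3 from left to right). Filled symbols have an adjusted p under 0.05: Epha4 kept it in 6 of 6, Sema3c in 3 of 6 and Efnb2 in 0 of 6, and Nrp1 was below it neither with all 6 arrays nor with 1 left out.

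The promoters of the 3 called genes are shown because Tet2 acts on methylated cytosines, which in mammals stand mostly in the dinucleotide CG. No methylation was measured here. Of the 65 members 56 had a promoter in the RefSeq-based table (build GRCm38.p6), a window of 300 bases from 250 before to 50 after the start. The windows of Epha4, Efnb2 and Sema3c held 17, 35 and 42 CG dinucleotides, against a median of 19 over the 69 promoters of members not called and of 7 over all 32851 promoters. Efnb2 and Sema3c thus lay above the median of the members not called and Epha4 below it. All 3 lay within the range of those promoters (2 to 56). The 250 bases before each start are given 5′ to 3′ on the gene's strand with every CG in capitals: Epha4 at chr1:77515089-77515338 (minus strand), Efnb2 at chr8:8661243-8661492 (minus strand) and Sema3c at chr5:17574566-17574815 (plus strand).
Epha4: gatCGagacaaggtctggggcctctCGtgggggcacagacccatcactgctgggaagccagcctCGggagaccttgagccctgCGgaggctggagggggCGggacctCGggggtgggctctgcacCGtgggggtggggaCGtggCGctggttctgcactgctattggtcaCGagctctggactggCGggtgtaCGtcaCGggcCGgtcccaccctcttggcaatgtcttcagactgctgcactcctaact
Efnb2: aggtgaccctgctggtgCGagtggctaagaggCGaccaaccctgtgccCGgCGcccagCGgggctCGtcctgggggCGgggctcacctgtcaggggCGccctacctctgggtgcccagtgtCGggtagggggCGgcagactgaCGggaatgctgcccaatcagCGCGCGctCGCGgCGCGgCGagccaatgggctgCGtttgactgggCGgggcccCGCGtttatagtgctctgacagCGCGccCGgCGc
Sema3c: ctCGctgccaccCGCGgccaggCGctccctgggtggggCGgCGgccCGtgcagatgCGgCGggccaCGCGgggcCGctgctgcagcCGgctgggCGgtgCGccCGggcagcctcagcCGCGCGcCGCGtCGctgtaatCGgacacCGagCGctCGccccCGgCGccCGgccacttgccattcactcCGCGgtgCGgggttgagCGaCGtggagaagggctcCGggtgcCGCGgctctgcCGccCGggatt
These stretches hold 14 CG in Epha4, 27 in Efnb2 and 39 in Sema3c. The letters TGANTCA (the AP-1 motif), the same read on either strand, were found in 0 of the 3 windows. They were found in 7.81% of all promoters of this length, and in 3 of the 72 member promoters (4.17%). A missing match says only that these letters are not in the window.

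Partner genes that act beside or behind the guidance receptors were described from a list of 92 symbols, of which 87 genes were measured. Of these 3 rose, 0 fell and 84 did not pass, and the list's median log2 change was 0.04. The 3 called are 3.45% of the list, against 0.647% of all features called as higher. At an unadjusted p under 0.05, 12 of the 87 were higher and 4 lower, where 7.63% and 8.37% of all features were. The list was chosen with earlier results of these data known, so these shares are description only. Itga1, the integrin alpha-1 chain that forms a Sema7a and collagen receptor with beta-1, had 5.99, 5.74 and 5.79 in labelled Tet2-deficient arrays, against 4.91, 4.39 and 4.32 in wild-type arrays. The groups lay far apart (2.47-fold, log2 change 1.30 ± 0.17 SE, adjusted p = 0.0152). Its call ended in 4 of the 6 fits with 1 array left out (adjusted p = 0.00539 to 0.0773). Those 4 were the fits without labelled Tet2-deficient replicate 1 (0.0773) or 3 (0.0734) and without wild-type replicate 2 (0.0517) or 3 (0.0689).

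Flrt3, a membrane protein that binds Unc5 receptors and Robo1, had 5.49, 5.89 and 6.10 in labelled Tet2-deficient arrays, against 4.97, 4.21 and 4.18 in wild-type arrays. Wild-type replicate 1 stood nearest to the other group, and the difference was 2.59-fold (log2 change 1.38 ± 0.23 SE, adjusted p = 0.0343). Without wild-type replicate 1 the Flrt3 change was 1.63 (adjusted p = 0.0118), and without any 1 of the other 5 arrays the call ended (0.0771 to 0.138). Vegfa, the vascular growth factor that shares Nrp1 with class 3 semaphorins, had 7.61, 7.41 and 7.16 in labelled Tet2-deficient arrays, against 6.52, 6.57 and 6.12 in wild-type arrays. The Vegfa groups did not overlap (1.98-fold, log2 change 0.99 ± 0.17 SE, adjusted p = 0.0330), and its call ended whichever array was left out (0.0561 to 0.12).

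Short of the threshold were Dpysl3, a cytosolic mediator of semaphorin signals (log2 change 0.83 ± 0.19 SE, adjusted p = 0.0798), and Tyrobp, the signalling adaptor of Trem2 and Plxna1 (-0.42 ± 0.12 SE, adjusted p = 0.124). Groups did not overlap for either gene. By side of the pathway, 2 of 33 semaphorin and plexin partners, 1 of 13 Slit and Robo partners, and 0 each of 11 netrin partners, 23 Eph and ephrin effectors and 7 shared cytoskeletal genes rose. The resident macrophage marker sum was higher in the same arrays as the 3 called partner genes. Most of that sum came from Prg4 and Timd4, and 3 of its 10 markers were called.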

How the data were processed

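Gene expression was deposited as 1 table of 6 arrays. The values are log2 expression made by the authors with RMA in affy 1.36.1, per the submitters' processing notes. Array type, probe set definition and build are not stated in the sources used here. RMA draws all arrays to a shared distribution (sorted values differ by at most 0.27), so a shift of all genes alike cannot be seen. Arrays have no read depth, and their number (3 per group) limits the precision. Columns were matched by sample accession, and groups and replicates come from the sample titles, which call them biological replicates. Of 25206 features 23185 had 1 symbol, 0 several and 2021 none. All 65 members matched RefSeq symbols (GRCm38.p6).

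Genotypes were compared over all features with limma 3.58.1 (lmFit, eBayes) under R 4.3.3, with two-sided p-values adjusted by Benjamini-Hochberg over all features. A permutation test of 3 against 3 arrays cannot go below p = 0.1 and was not used. The code of the fit was run on simulated data with independent normal noise, which is no test of the calls given above. Members and lists were chosen with earlier results of these data known. Named were Tet2, every member above 5, lower members with an adjusted p under 0.05 or with groups apart and an unadjusted p under 0.05, the 2 members on each side of 5, and partner genes that were called or among the 6 smallest p (1 of these is not reported here); other members were named, after their values were seen, to show their family. Partner genes and cell type markers came from lists by role. Alternatives were median centring, cyclic loess, dim features left out, a replicate block, a trended and robust prior, array weights, features with 1 symbol, each array left out, and other thresholds.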

Additional observations from a re-analysis of the deposited data

How the results depend on the processing

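With 3 arrays per group the calls rest on few samples. The 3 members past the threshold were 3 under median centring, cyclic loess and features with 1 symbol, 4 with dim features left out, a trended and robust prior or array weights (Nrp1 added), 5 at an adjusted p under 0.1, 1 at 0.01, and 1 to 2 with 1 array left out. With the replicate block 2 members passed, and Efnb2 had an adjusted p = 0.0512. Deviations of same-numbered arrays had correlations of 0.0838, 0.191 and 0.0248 for replicates 1, 2 and 3. Those of unlike-numbered arrays from the 2 groups were -0.137 to 0.0636. Whether same-numbered samples share a source is not stated in the labels, so the main fit has no pairing and the block is an alternative. The 3 partner genes became 6 with a trended and robust prior (4 higher, 2 lower), 0 at 0.01, 2 with the block, and 0 to 3 with 1 array left out. The members' median change of -0.04 was 0.0642 with dim features left out, where fewer members are fitted, and -0.0711 to 0.0071 with 1 array left out. Above a mean of 4 in place of 5 lay 22 members, above 6 lay 8.

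Directions reversed for 3 genes near 0, and the cause was not tested. Sema4a had -0.0476 with cyclic loess, -0.0074 with array weights, -0.0873 without labelled Tet2-deficient replicate 1 and -0.0640 without wild-type replicate 3 (up to 0.0461 with 1 array left out). Plxnb2 had -0.0338 with cyclic loess, -0.0068 and -0.0124 without wild-type replicate 2 or 3, and -0.0438 without labelled Tet2-deficient replicate 3 (up to 0.0755). Sema4d had 0.0234 with median centring, 0.0176 with array weights, 0.318 without labelled Tet2-deficient replicate 2 and 0.0024 without wild-type replicate 3 (down to -0.265).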
